A study of Homo sapiens with 8 samples.

Results

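The genes described here are the glycosyltransferases that start, branch and extend mucin-type O-glycans and complex N-glycans and that add fucose, with the chaperone of the core 1 enzyme. They were picked out by symbol, as the entries of the GALNT, B3GNT, B4GALT, B3GALT, FUT, GCNT and MGAT families that carry a number, plus C1GALT1 and C1GALT1C1. The choice was made with earlier results of these data known. Of 63816 entries in the table, 90 matched, 11 were left out as pseudogenes and 8 as repeats of a symbol, with the entry of highest mean kept. This left 71 genes, of which 66 were enzymes or the chaperone and 5 were antisense RNAs that carry a transferase symbol. RNA was sequenced from 8 samples labelled Caco-2, an established line from a human colorectal adenocarcinoma that the study chose because it does not express Siglec-XII. The empty vector group (n = 4) had been stably transfected with linearized pcDNA3.1, and the Siglec-XII group (n = 4) with the same vector carrying SIGLEC12, and both had been selected with G418. Because the groups were transfected and selected separately, effects of Siglec-XII and differences between these populations cannot be told apart. The labels do not say that the samples of a group were separate cultures, the series description speaks of fewer cultures than the 4 samples labelled in each group, and the study's methods speak of technical replicates, so that p-values may measure technical spread only.

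Mucin-type O-glycosylation begins in the Golgi, where a GALNT enzyme adds N-acetylgalactosamine to serine or threonine, and C1GALT1, C1GALT1C1 and the GCNT enzymes then build the core structures. On N-glycans the MGAT enzymes set the number of branches, the B4GALT and B3GNT enzymes lengthen them with alternating galactose and N-acetylglucosamine, and the FUT enzymes add fucose to the core or the ends. Many chains made by these enzymes end in sialic acid, to which most Siglec receptors bind, but human Siglec-XII has lost that binding. The study addressed what expression of Siglec-XII does to carcinoma cells.

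SIGLEC12 served as a check of the labels. It lay between 0.0399 and 0.122 TPM (transcripts per 1e+06 transcripts) in the empty vector samples and between 1582 and 1734 TPM in the Siglec-XII samples (two-sided exact permutation p = 0.0286, the lowest possible with 4 samples in each group). Of 20 intestinal epithelium markers, 2 reached 1 TPM in at least 4 samples, namely the transcription factors CDX1 (128 to 165 TPM) and CDX2 (34.0 to 48.8 TPM). A further 16 stayed under 1 TPM in all 8 samples, and KRT20, FABP1, SI, PHGR1 and TFF3 were listed at 0 throughout. Of 25 trophoblast markers, 19 reached 1 TPM in at least 4 samples. XAGE3 was at 1114 to 1233 TPM, HSD3B1 at 316 to 370 TPM and GATA3 at 331 to 479 TPM. Others of the 19 were low: CGA, ERVW-1, ERVFRD-1, PSG1 and PSG3 had highest values of 1.35, 1.59, 2.48, 2.42 and 2.23 TPM. The other 6, GCM1, CGB3, CGB5, CGB8, LEP and INSL4, were under 1 TPM in all 8 samples. The summed level of the 25 trophoblast markers was 4058 to 4121 TPM with the empty vector and 3976 to 4072 TPM with Siglec-XII. The markers thus went against the labelled intestinal type in both groups, and their part in the results below was not tested. Of 9 fibroblast markers, 6 passed the same filter. In bulk RNA, fewer cells of a type and less RNA per cell cannot be told apart.

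The promoters of 4 members are shown because they span the range of levels in these samples, from the strongly expressed B3GNT2 and B3GNT5 to their relative B3GNT3 and to FUT6, both listed at 0 in 7 of the 8 samples. Each is the 250 bases before the RefSeq start of the gene in GRCh38.p14, written 5′ to 3′ on the strand of the gene, with capitals for GC boxes (GGGCGG or its reverse complement CCGCCC). B3GNT2 was read from chr2:62195865-62196114 on the plus strand, B3GNT5 from chr3:183253003-183253252 on the plus strand, B3GNT3 from chr19:17794888-17795137 on the plus strand and FUT6 from chr19:5839703-5839952 on the minus strand.
B3GNT2: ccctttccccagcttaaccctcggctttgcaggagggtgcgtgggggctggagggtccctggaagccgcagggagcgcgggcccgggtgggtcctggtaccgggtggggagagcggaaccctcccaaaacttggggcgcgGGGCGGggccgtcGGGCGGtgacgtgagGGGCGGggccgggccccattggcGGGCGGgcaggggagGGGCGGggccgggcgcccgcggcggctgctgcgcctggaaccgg
B3GNT5: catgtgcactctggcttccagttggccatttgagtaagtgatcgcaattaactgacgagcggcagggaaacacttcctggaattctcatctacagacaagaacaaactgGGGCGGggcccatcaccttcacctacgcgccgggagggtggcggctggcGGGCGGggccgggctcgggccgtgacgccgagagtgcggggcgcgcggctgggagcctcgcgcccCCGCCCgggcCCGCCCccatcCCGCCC
B3GNT3: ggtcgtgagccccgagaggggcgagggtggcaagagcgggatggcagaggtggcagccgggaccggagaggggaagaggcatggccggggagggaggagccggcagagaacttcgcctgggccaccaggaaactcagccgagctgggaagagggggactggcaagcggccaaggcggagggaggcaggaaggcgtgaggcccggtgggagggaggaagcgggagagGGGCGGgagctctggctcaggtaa
FUT6: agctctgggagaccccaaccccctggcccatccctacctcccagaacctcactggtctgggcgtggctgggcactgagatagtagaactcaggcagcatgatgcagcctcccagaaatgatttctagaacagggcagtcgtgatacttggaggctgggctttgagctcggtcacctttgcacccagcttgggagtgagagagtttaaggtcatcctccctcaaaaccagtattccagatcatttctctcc
The letters of the GC box occurred 5 times in the windows of B3GNT2 and B3GNT5, 1 time in that of B3GNT3 and 0 times in that of FUT6.

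RefSeq promoters were found for 49 of the 66 enzyme and chaperone genes, 30 of which passed the filter of at least 1 TPM in at least 4 samples. GC boxes stood in 60% of these 30, in 63.2% of the 19 that did not pass and in 42.3% of all 27305 promoters of the same length. A GC box was therefore no more frequent before the expressed members than before the others. The median ratio of observed to expected CpG was 0.79 before the expressed members, 0.45 before the others and 0.56 over all promoters. TATAAA, on either strand, was found before 1 member, which had not passed the filter, against 11.1% of all promoters. CCAAT, on either strand, stood in 33.3% of the expressed members, 15.8% of the others and 33.0% of all. FUT8 and MGAT1, with high levels, had CpG ratios of 0.12 and 0.39, so level and CpG ratio did not run in parallel for every gene. The windows stand before a single RefSeq start of each gene, and whether these cells use that start was not tested.

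**Figure D1:**
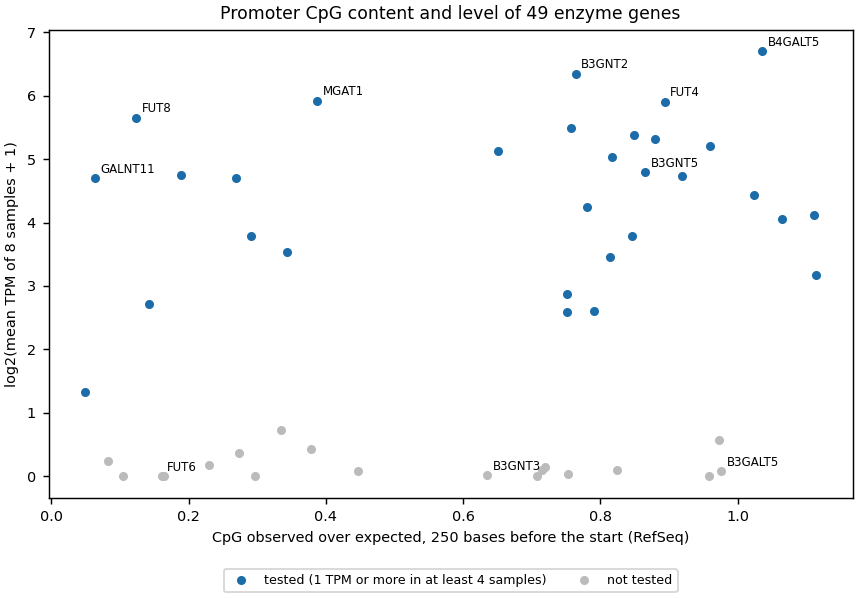
The ratio of observed to expected CpG in the 250 bases before the start (x axis) is plotted against log2 of the mean TPM of 8 samples plus 1 (y axis) for 49 genes, blue where the gene reached 1 TPM in at least 4 samples and grey otherwise. Expressed genes lie at both low and high CpG ratios, with a median of 0.79 against 0.45 for the grey points.

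Of the 71 members, 40 passed the filter and were tested (39 enzymes or chaperone and FUT8-AS1), and 31 were not. On the entry kept for each symbol, 28 were under 1 TPM in all 8 samples, and MGAT4D and B3GALT2 were listed at 0 in every sample. The other 3 untested genes, MGAT5B, B3GNT4 and B4GALT1-AS1, reached 1 TPM in 1 or 2 samples. The summed level of the 66 enzyme and chaperone genes, with 1 entry per symbol, was 943 ± 36.9 TPM (SD, n = 4) with the empty vector and 1021 ± 21.4 TPM (SD, n = 4) with Siglec-XII, or 0.0943% and 0.102% of all TPM. The repeat entries of GCNT2, MGAT4B, B3GALT4 and MGAT4C are outside this sum and the class sums below, which are low by that amount. Averaged over all samples, 19 members exceeded 20 TPM and 5 exceeded 50 TPM. These 5 were B4GALT5, B3GNT2, MGAT1, GALNT6 and FUT4, a member each of 5 different steps.

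**Figure D2:**
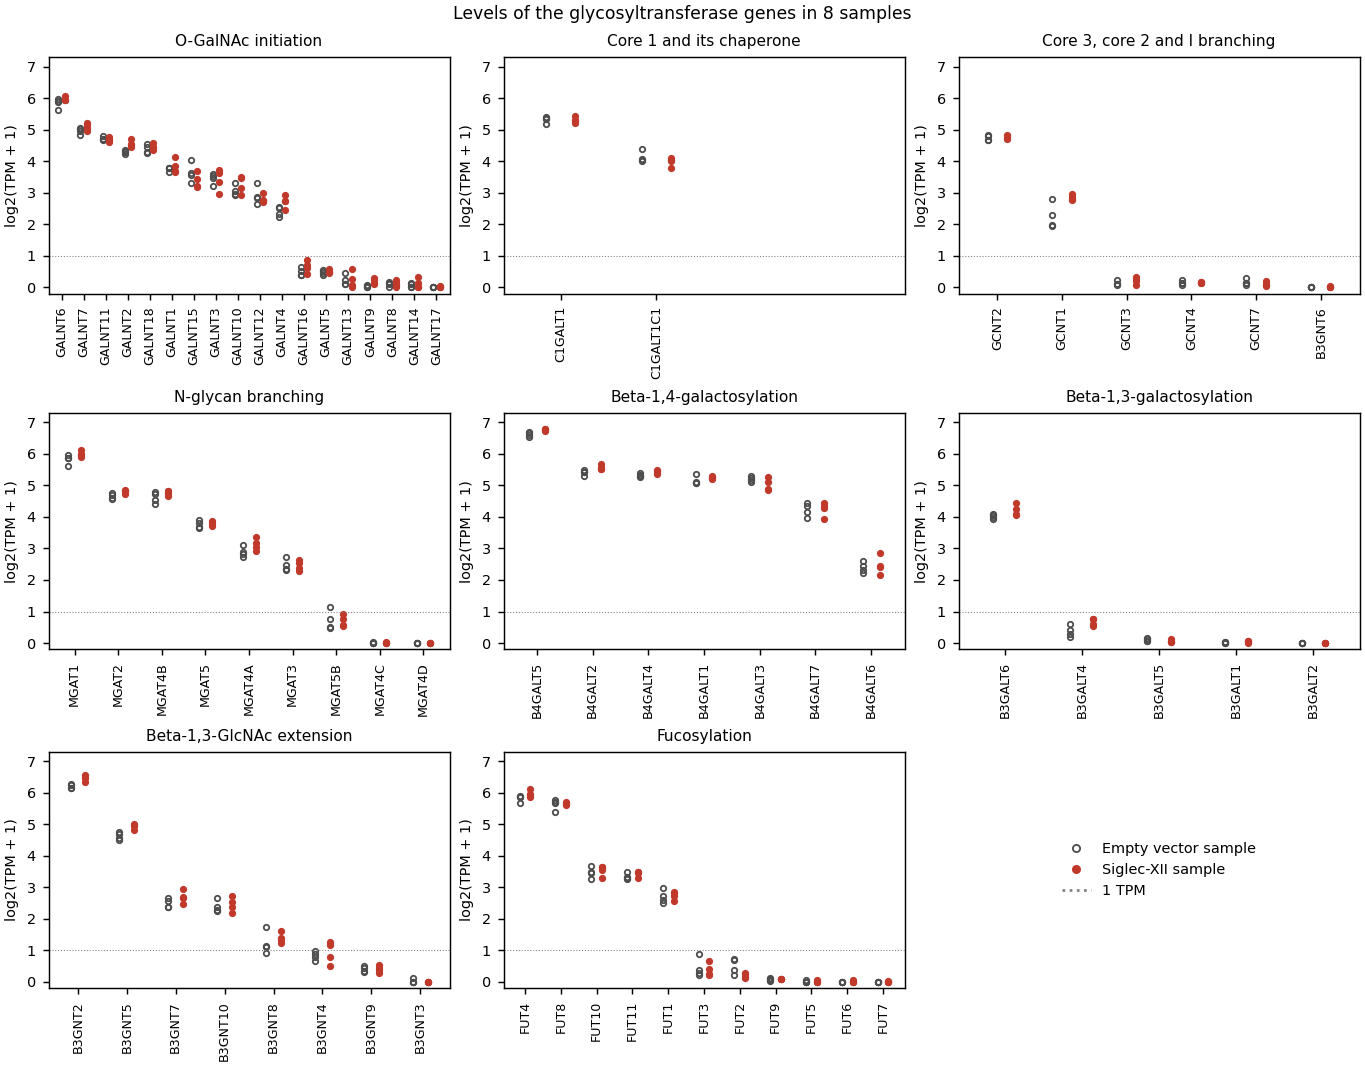
Each point is 1 sample's log2(TPM + 1), open for the empty vector and filled red for Siglec-XII, with genes ordered by mean level within each class and 1 TPM as a dotted line. Every class drawn has 1 to 11 genes that passed the filter. The 5 antisense RNAs are not drawn, and 3 of them are among the 28 of 71 members under 1 TPM in all 8 samples on the entry kept.

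Differences between the groups were small. No member passed an adjusted p of 0.05 in limma fitted over all 15590 entries tested, where 0.648% of entries did so, and the lowest adjusted p of a member was 0.0891. An unadjusted limma p of 0.05 or less and a higher mean with Siglec-XII were found for 8 of 40 members (20%), against 13.9% of all entries, and with a lower mean for 0 of 40 against 2.61%. The groups did not overlap for 5 of 40 members (12.5%), all higher with Siglec-XII, against 9.17% of all entries, and 0 of 40 did not overlap in the lower direction against 1.68%. Without empty vector sample 2, 13 members were higher by p against 16.7% of all entries and 11 by lack of overlap against 16.9%. With upper quartiles made equal between samples, 4 members were higher and 1, B4GALT3, lower at an unadjusted p of 0.05 or less, against 7.20% and 5.68% of all entries. The 4 were B3GNT2, B3GNT5, GALNT2 and GCNT1. Under that scaling the estimates of 17 members shrank by over 1.5 times and 5 more changed sign. The estimates of 4 members grew by over 1.5 times. The median log2 differences were then 0.038 over the members and 0.012 over all entries. Higher means were also the rule in the whole table, with 80% of the members and 68.1% of all entries higher with Siglec-XII. The median log2 difference was 0.086 over the members and 0.067 over all entries, on the log2(TPM + 1) scale that all log2 differences here use. The 95% intervals lay within 0.5 of 0 for 34 of the 40 members.

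**Figure D3:**
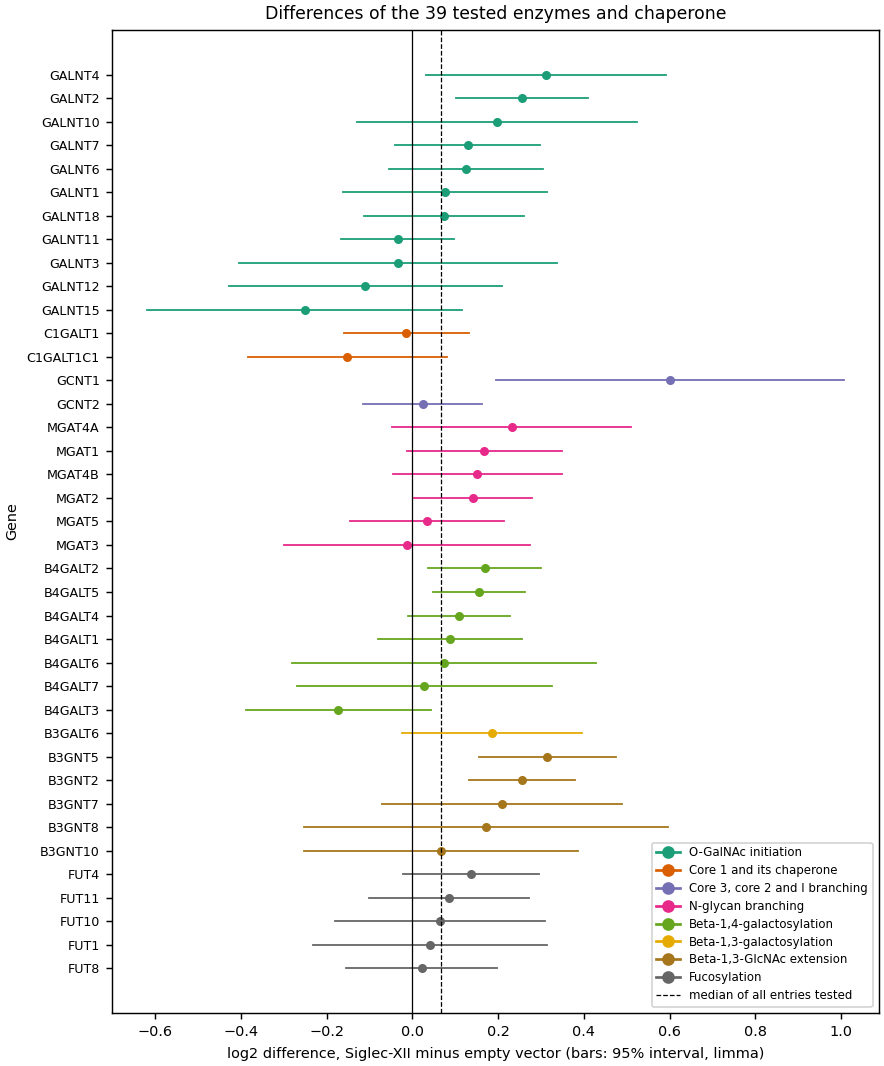
The log2(TPM + 1) difference, Siglec-XII minus empty vector (x axis), is given for each of the 39 tested enzyme and chaperone genes, with the 95% interval from limma and the median of all entries as a dashed line. The estimates run from -0.25 for GALNT15 to 0.60 for GCNT1, and most intervals cross 0.

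The first step, transfer of N-acetylgalactosamine to the protein, had 18 GALNT genes, of which 11 were tested. Of these, 7 were higher in mean and 4 lower with Siglec-XII, 2 had an unadjusted p of 0.05 or less, and the median log2 difference was 0.076. GALNT6, a GALNT described mostly in carcinomas, was the most abundant, with 47.8, 58.7, 58.0 and 62.2 TPM in empty vector samples 1 to 4 and 60.2, 60.3, 66.2 and 59.8 TPM in Siglec-XII samples 1 to 4. Empty vector sample 1 was the lowest and the groups overlapped (log2 difference 0.12, SE 0.0799, limma adjusted p = 0.467).

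GALNT2, a widely expressed initiating enzyme, was at 17.7, 19.3, 18.7 and 18.9 TPM with the empty vector and at 21.6, 20.8, 22.4 and 25.0 TPM with Siglec-XII. All Siglec-XII samples were above all empty vector samples, with a log2 difference of 0.25 (95% interval 0.10 to 0.41, limma adjusted p = 0.134). GALNT4, which acts mainly on peptides that already carry a sugar, was at 4.05, 4.66, 3.64 and 4.86 TPM with the empty vector and at 5.69, 5.60, 6.58 and 4.52 TPM with Siglec-XII. Siglec-XII sample 4 fell among the empty vector samples, and the log2 difference was 0.31 (95% interval 0.031 to 0.59, limma adjusted p = 0.261). The exons of GALNT4 overlap the readthrough gene POC1B-GALNT4 on the same strand, so its reads may be divided between both.

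The remaining tested GALNT genes had estimates on both sides of 0. GALNT15 was at 11.6 ± 2.69 TPM (SD, n = 4) and 9.51 ± 1.75 TPM (SD, n = 4), with a log2 difference of -0.25 (95% interval -0.62 to 0.12). The 7 GALNT genes that were not tested, among them GALNT5, GALNT13 and GALNT14, stayed under 1 TPM in every sample, and GALNT17 was listed at 0 in 7 of 8. Summed over the class, the levels were 204 ± 6.77 TPM (SD, n = 4) and 218 ± 3.98 TPM (SD, n = 4), a change in mean of 6.46%, and the groups did not overlap. With upper quartiles made equal the change was 2.04%.

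The core 1 step was carried by both genes. C1GALT1, the galactosyltransferase that makes the core 1 disaccharide, was at 35.5, 39.9, 39.8 and 41.0 TPM with the empty vector and at 38.2, 36.3, 42.1 and 38.0 TPM with Siglec-XII, values that overlapped throughout. Its log2 difference was -0.014 (95% interval -0.16 to 0.13, limma adjusted p = 0.933). Its chaperone C1GALT1C1, known as Cosmc and needed for active enzyme, was at 16.6 ± 2.34 TPM (SD, n = 4) and 14.8 ± 1.33 TPM (SD, n = 4), with a log2 difference of -0.15 (95% interval -0.38 to 0.080). This class was the only one of the 8 with a lower summed level with Siglec-XII (55.7 ± 4.32 and 53.4 ± 2.99 TPM, SD, n = 4), and the groups overlapped.

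Core 2, core 3 and I branching rested on 2 of 6 genes. GCNT2, which makes the branched I antigen, was the most abundant and was at 27.0, 24.2, 27.3 and 24.6 TPM with the empty vector and at 27.2, 25.0, 27.0 and 25.8 TPM with Siglec-XII. The groups overlapped (log2 difference 0.024, 95% interval -0.11 to 0.16, limma adjusted p = 0.879). Its symbol stands on 2 entries of nearly the same values, whose sum was 49.5 ± 3.28 TPM (SD, n = 4) and 50.1 ± 1.96 TPM (SD, n = 4).

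GCNT1, the core 2 branching enzyme, had the largest estimate of all tested members. It was at 5.89, 2.81, 2.92 and 3.92 TPM with the empty vector and at 6.83, 5.74, 6.24 and 6.01 TPM with Siglec-XII. Empty vector sample 1 lay among the Siglec-XII samples and the other empty vector samples were below all of them. The log2 difference was 0.60 (SE 0.180, 95% interval 0.20 to 1.01, limma adjusted p = 0.16). Without empty vector sample 1 it was 0.78 with a limma adjusted p of 0.0509, the lowest of any member under any alternative. GCNT1 exons overlap those of PRUNE2 on the opposite strand. GCNT3 and B3GNT6, the core 2 and core 3 enzymes typical of mucous epithelia, were at most 0.261 and 0.0229 TPM, and GCNT4 and GCNT7 were also under 1 TPM in all samples.

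N-glycan branching had 6 tested genes of 9, of which 5 were higher in mean with Siglec-XII. MGAT1, which starts the first branch and opens the way to complex N-glycans, was at 48.2, 61.5, 57.0 and 57.5 TPM with the empty vector and at 58.2, 62.4, 62.1 and 69.3 TPM with Siglec-XII. Empty vector sample 1 was the lowest and sample 2 lay among the Siglec-XII values (log2 difference 0.17, 95% interval -0.014 to 0.35, limma adjusted p = 0.339). With upper quartiles made equal its log2 difference was 0.11. MGAT2, which starts the second branch, was at 23.3, 26.2, 22.8 and 24.9 TPM with the empty vector and at 27.1, 25.5, 27.9 and 27.0 TPM with Siglec-XII.

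The MGAT2 groups overlapped through empty vector sample 2 alone, and the log2 difference was 0.14 (SE 0.0612, limma adjusted p = 0.29), or 0.083 with upper quartiles made equal. MGAT4A and MGAT4B, which add the same branch, had log2 differences of 0.23 (95% interval -0.047 to 0.51) and 0.15 (95% interval -0.045 to 0.35). MGAT4B stands on 2 entries whose sum was 47.3 ± 5.72 TPM (SD, n = 4) and 52.6 ± 2.96 TPM (SD, n = 4). MGAT5, which adds the branch that often carries long chains, was at 12.6 ± 1.10 TPM and 12.9 ± 0.779 TPM (SD, n = 4), and MGAT3, which adds the bisecting residue, was at 4.57 ± 0.777 and 4.50 ± 0.593 TPM (SD, n = 4). For both, the estimate was smaller than its SE.

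All 7 B4GALT genes, which transfer galactose in beta-1,4 linkage, were tested, and 6 were higher in mean with Siglec-XII. B4GALT5, known mainly for making lactosylceramide, was the most abundant of the 71 members. It was at 95.1, 103, 99.5 and 91.2 TPM with the empty vector and at 107, 106, 111 and 110 TPM with Siglec-XII. The groups did not overlap, and the log2 difference was 0.16 (SE 0.0476, limma adjusted p = 0.168). With upper quartiles made equal it was 0.094 (limma adjusted p = 0.411) and the unadjusted p was above 0.05.

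B4GALT2, a galactosyltransferase of N-glycans, was at 41.6, 44.0, 42.3 and 38.3 TPM with the empty vector and at 45.3, 47.1, 45.0 and 49.8 TPM with Siglec-XII. Its groups did not overlap either, although the lowest Siglec-XII sample and the highest empty vector sample were close (log2 difference 0.17, SE 0.0583, limma adjusted p = 0.209). With upper quartiles made equal its groups overlapped and the log2 difference was 0.11 (limma adjusted p = 0.463). B4GALT3 was the exception in direction, at 35.8 ± 2.21 TPM and 31.9 ± 4.53 TPM (SD, n = 4), with a log2 difference of -0.17 (95% interval -0.39 to 0.043). It was -0.23 with upper quartiles made equal, at an unadjusted limma p of 0.0357 (adjusted p = 0.347). B4GALT1, the galactosyltransferase that is also part of lactose synthase, had a log2 difference of 0.087 (95% interval -0.081 to 0.25). B4GALT7, which acts on the linker of proteoglycans, was at 17.9 ± 2.65 TPM and 18.3 ± 2.85 TPM (SD, n = 4).

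Of the 5 B3GALT genes, B3GALT6, the next enzyme of the proteoglycan linker, was alone in passing the filter on the entry kept. It was at 14.2, 16.2, 15.0 and 15.6 TPM with the empty vector and at 15.6, 17.9, 16.0 and 20.7 TPM with Siglec-XII. Siglec-XII samples 2 and 4 were above all empty vector samples and the other two were not (log2 difference 0.19, 95% interval -0.024 to 0.40, limma adjusted p = 0.355). B3GALT4, which acts on gangliosides, stands on 5 entries whose sum was 0.932 ± 0.332 TPM and 1.25 ± 0.125 TPM (SD, n = 4, two-sided exact permutation p = 0.143). The entry kept was at most 0.694 TPM and was not tested. The sum was 0.845, 1.32, 1.03 and 0.529 TPM with the empty vector and 1.21, 1.11, 1.30 and 1.40 TPM with Siglec-XII. The summed gene would therefore have passed the filter. B3GALT5, an enzyme of type 1 chains that is typical of the gut, was at most 0.105 TPM.

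The B3GNT genes add N-acetylglucosamine in beta-1,3 linkage and had the largest percent change in summed level over all 8 samples. Their sums were 103, 109, 110 and 111 TPM in the empty vector samples and 131, 122, 136 and 132 TPM in the Siglec-XII samples. The groups did not overlap, and the mean was 20.3% higher with Siglec-XII, or 15.3% with upper quartiles made equal. Without Siglec-XII sample 1 the B3GALT class had a larger change than the B3GNT class (20.5% and 20.2%), and likewise without Siglec-XII sample 3. All 5 tested genes of the class were higher in mean, with a median log2 difference of 0.21.

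B3GNT2, the main enzyme of poly-N-acetyllactosamine chains, took 67.5% of the class sum in the empty vector group and 67.1% in the Siglec-XII group. It was at 70.7, 70.2, 74.1 and 76.9 TPM with the empty vector and at 88.7, 80.6, 92.7 and 87.6 TPM with Siglec-XII, 1.20-fold higher in mean. The groups did not overlap, and the log2 difference of 0.26 (SE 0.0549, 95% interval 0.13 to 0.38) had the lowest adjusted p of the members (limma adjusted p = 0.0891). B3GNT5, which makes lactotriaosylceramide, the start of lacto-series glycolipids, was at 21.7, 25.9, 24.6 and 22.6 TPM with the empty vector and at 30.7, 27.3, 31.1 and 29.6 TPM with Siglec-XII.

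All B3GNT5 values with Siglec-XII were above all values with the empty vector, and the log2 difference was 0.31 (SE 0.0713, 95% interval 0.15 to 0.47, limma adjusted p = 0.0984). Its exons overlap MCF2L2 on the opposite strand. B3GNT7, which extends keratan sulphate and related chains, was at 4.63 ± 0.564 TPM and 5.53 ± 0.919 TPM (SD, n = 4), with a log2 difference of 0.21 (95% interval -0.071 to 0.49). B3GNT3, the relative whose promoter is shown above and which extends core 1 O-glycans, was at 0.0833 TPM in empty vector sample 3 and at 0 in the other samples.

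Fucosylation had 5 tested genes of 11, and none had an unadjusted p of 0.05 or less. FUT4, an alpha-1,3-fucosyltransferase that can make the Lewis x structure, was at 50.1, 58.4, 57.7 and 57.8 TPM with the empty vector and at 59.7, 61.3, 57.4 and 68.3 TPM with Siglec-XII. Empty vector sample 1 stood below the other samples and the groups overlapped (log2 difference 0.14, 95% interval -0.021 to 0.30, limma adjusted p = 0.365). FUT4 exons overlap PIWIL4 on the same strand. FUT8, the only enzyme that adds core fucose to N-glycans, was at 49.0 ± 5.38 TPM and 49.6 ± 1.61 TPM (SD, n = 4), with a log2 difference of 0.022 (95% interval -0.15 to 0.20).

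FUT1, which makes the H antigen, was at 5.52 ± 0.933 and 5.69 ± 0.605 TPM (SD, n = 4). The enzymes of secretor and Lewis antigens were low: FUT2 was at most 0.652 TPM, FUT5 at most 0.0534 TPM and FUT6 at most 0.0312 TPM. FUT2 was at 0.286, 0.652, 0.617 and 0.170 TPM with the empty vector and at 0.118, 0.0842, 0.178 and 0.217 TPM with Siglec-XII. These values overlap and are under the filter, so they did not enter the comparison of all entries. FUT3 was also under 1 TPM, and FUT7 and FUT9 were under 0.1 TPM, in all samples.

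**Figure D4:**
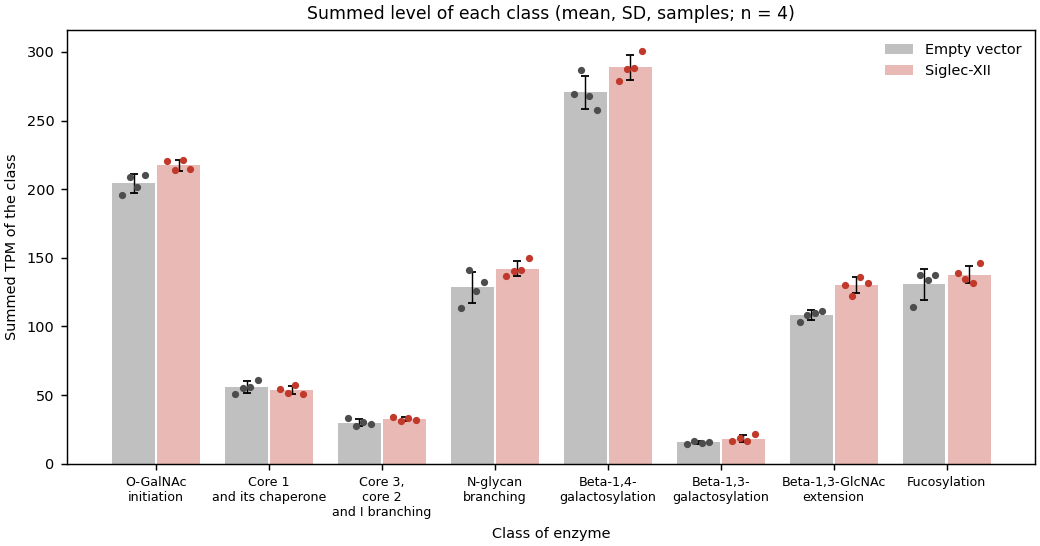
Summed TPM of each class, with the entry kept for each symbol (y axis, bars from 0), with the SD and the 4 samples of each group as points, grey for the empty vector and red for Siglec-XII. The beta-1,3-GlcNAc class is 20.3% higher in mean with Siglec-XII without overlap, and core 1 with its chaperone is the only class that is lower in mean.

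Samples differed in ways that moved with the members. The median deviation of the 40 members from their mean over all samples was -0.13 in empty vector sample 1 and 0.078 in Siglec-XII sample 4, and over all entries the same samples were the lowest (-0.089) and the highest (0.058). Mitochondrially encoded genes took the largest share of TPM in the former (11.2%) and the smallest in the latter (6.67%). In empty vector samples 2 to 4 the share was 8.49%, 9.65% and 7.92%, with member deviations of 0.0055, -0.055 and -0.030. In Siglec-XII samples 1 to 3 it was 8.53%, 9.97% and 7.92%, with member deviations of 0.050, 0.030 and 0.032. The part of the mitochondrial share in the result was not tested. Empty vector sample 1 and Siglec-XII sample 2 each held the lowest value of their group for 18 of 40 members, and empty vector sample 2 held the highest for 22 of 40. The median coefficient of variation of the tested members was 11.0% in the empty vector group and 8.16% in the Siglec-XII group.

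At an unadjusted limma p of 0.05 or less, nucleotide sugar supply had the largest share of higher genes among the other glycan pathway lists. Its median log2 difference was 0.14, and 9 of 24 genes (37.5%) were higher with Siglec-XII at that threshold, against 13.9% of all entries. The 9 were GNPNAT1, UAP1L1, RENBP, GALK2, GFUS, GMPPB, MPI, HK2 and PGM1, not all of which serve nucleotide sugar synthesis alone. Among them, GMPPB, which makes GDP-mannose, was at 15.8 ± 0.808 TPM and 19.6 ± 1.75 TPM (SD, n = 4, limma adjusted p = 0.123), and GFUS, which makes GDP-fucose, was at 30.6 ± 1.59 TPM and 34.7 ± 0.926 TPM (SD, n = 4, limma adjusted p = 0.161). The list named Golgi nucleotide sugar transport had 3 of 13, namely SLC35B1, SLC35B4 and SLC35D2. SLC35B1 was at 115 ± 7.26 and 136 ± 4.86 TPM (SD, n = 4, limma adjusted p = 0.101). SLC35B4, a carrier of UDP-xylose and UDP-N-acetylglucosamine, was at 18.2 ± 1.05 and 22.5 ± 1.88 TPM (SD, n = 4, limma adjusted p = 0.115). The list took in SLC35 family genes and TMEM165, and whether each carries nucleotide sugars into the Golgi was not tested. Sialyltransferases had 2 of 11 (18.2%), glycosphingolipid and blood group transferases 2 of 8 (25%), Golgi organisation 2 of 21 (9.52%) and mucins 1 of 8 (12.5%). The lists were not counted with upper quartiles made equal, where the share of all entries was 7.20%.

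N-glycan precursor synthesis and transfer had 4 of 28 genes higher (14.3%) and 2 lower at that threshold, against 13.9% and 2.61% of all entries. The higher ones were the oligosaccharyltransferase subunits STT3A, STT3B, RPN1 and DDOST. The lower ones were ALG5 and DPM1, which make dolichol-linked sugars. N-glycan trimming had 0 of 15 in either direction and other O-linked glycosylation had 1 of 23 in each. No gene of any of these lists passed an adjusted p of 0.05 in limma.

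**Figure D5:**
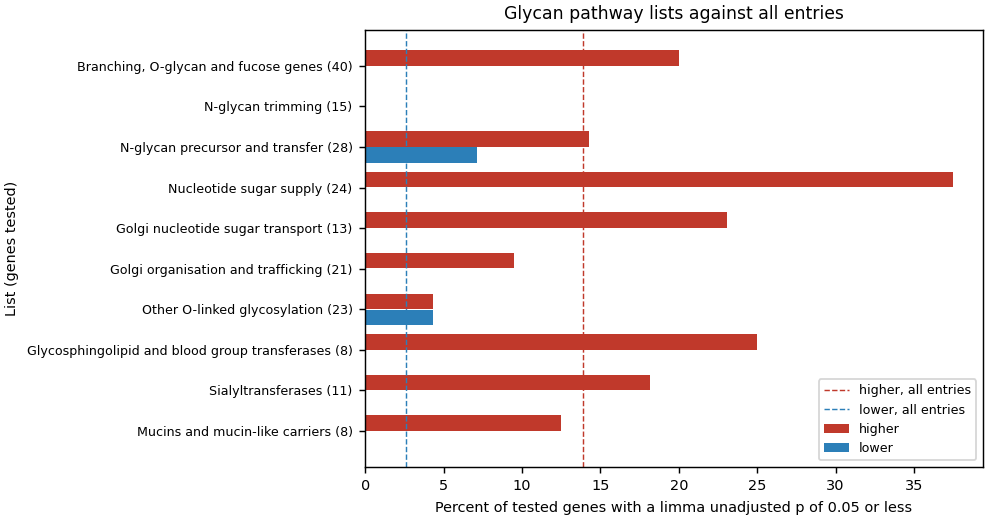
Percent of tested genes in each list with a limma unadjusted p of 0.05 or less (x axis), red for higher and blue for lower with Siglec-XII, and dashed lines for all entries (13.9% and 2.61%). The members are at 20% and nucleotide sugar supply at 37.5%, both right of the dashed red line. Also right of it are glycosphingolipid and blood group transferases (25%), Golgi nucleotide sugar transport (23.1%), sialyltransferases (18.2%) and N-glycan precursor and transfer (14.3%). Mucins (12.5%), Golgi organisation (9.52%), other O-linked glycosylation (4.35%) and N-glycan trimming (0%) lie left of it.

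Of the 5 antisense RNAs, FUT8-AS1 was tested, at 1.13 ± 0.224 TPM and 1.26 ± 0.340 TPM (SD, n = 4), with a log2 difference of 0.079. B4GALT1-AS1, B3GALT5-AS1, B4GALT4-AS1 and MGAT3-AS1 were not tested, and their highest values were 1.28, 0.453, 0.144 and 0.711 TPM.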

How the data were processed

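RNA-seq libraries of 4 empty vector and 4 Siglec-XII samples were used. The authors deposited log2 values, log2(TPM + 1) per gene, quantified with kallisto on build hg19 (version 0.45.0 in the submitters' processing notes, another in the methods). Strand settings are not given in the sources used here. The labels name a stranded total RNA kit and the methods a poly(A) kit. The labels state 25 to 40 (in units of 1e+06) reads of 100 bp per sample, but the table holds no counts, so the depth behind each value is unknown and no counting interval was given. The count model named by the study could not be used.

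TPM was taken back from the deposited log2 scale for levels. Groups were compared with limma 3.58.1 (R 4.3.3; lmFit, eBayes with trend) on log2(TPM + 1), with a pseudocount of 1, over 15590 entries at 1 TPM or more in at least 4 samples, with Benjamini-Hochberg adjustment. Log2 differences understate the change of low genes. Single values were compared by two-sided exact permutation over 70 labellings. Positions of overlapping exons came from GENCODE release 44 lifted to GRCh37. Exons of 7 of 39 members looked up overlapped a protein-coding gene on the opposite strand. These were B3GNT5, GCNT1, GALNT6 (SLC4A8), B4GALT3 (PPOX), MGAT4B (SQSTM1), B3GNT10 (FBXW2) and FUT8-AS1 (FUT8). On the same strand there were 3, FUT4, GALNT4 and GALNT10 (MFAP3). Identical copies share reads in kallisto, so repeated symbols are uncertain. The fit was tested on simulated data with noise drawn separately for each entry and sample. The simulation held no shift shared by most entries, as these data do, so it could not test the fit under such a shift.

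The members and lists were chosen with earlier results of these data known. Members described in every sample are those with an unadjusted p of 0.05 or less, those whose groups do not overlap and the most abundant of each class. FUT2, also given in every sample, was added after its values were seen. The 19 alternatives covered pseudocount, filters, scaling, a replicate block, eBayes without trend, array weights, transcript length and each sample left out. For length, a smoothed trend of the group difference on the length of the transcript named for each entry was subtracted. That transcript had 272 bases for GALNT1, so its length may not be the one behind the TPM. The subtraction also took out the shift shared by all entries, whose median log2 difference was then 0.0014.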

Additional observations from a re-analysis of the deposited data

Results flagged for a closer look

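Of 80 groups of 4 samples (40 tested members in each group), 3 held a sample far from the others by Dixon's test, where chance would give about 4. Values are log2(TPM + 1). GALNT6 in Siglec-XII sample 3 was at 6.07, above the other samples of its group. B4GALT1 in empty vector sample 2 was at 5.38, above the others. FUT4 in empty vector sample 1 was at 5.67, below the others, in the sample that also had the largest mitochondrial share.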

How the results depend on the processing

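No member passed an adjusted p of 0.05 in limma under any of the 19 alternatives, and B3GNT2, B3GNT5, GALNT2 and GCNT1 had an unadjusted p of 0.05 or less in all 19. The cause of the changes below was not tested. The count of members with an unadjusted p of 0.05 or less and a higher mean was 8 in the report, against 13.9% of all entries. It was 4 with equal upper quartiles (7.20% of all entries), 4 with quantile normalization (7.02%) and 4 of 38 with the length trend removed (5.24%). It was 5 with mitochondrial and the 100 most abundant entries left out (8.86%) and 6 to 13 with 1 sample left out (10.1% to 16.7%). The count with a lower mean, 0 in the report, was 1 with equal upper quartiles, no filter (FUT2), quantile normalization, mitochondrial and abundant entries left out, the replicate block and the length trend removed, and 0 to 1 with 1 sample left out. The share of all entries with a lower mean ran from 1.94% (no filter) to 5.86% (length trend removed) under these alternatives. Members without overlap, 5 higher and 0 lower, were 2 of 38 higher with the length trend removed, against 3.41% of all entries. With 1 sample left out, 5 to 11 were higher, against 10.7% to 16.9%. With quantile normalization and with equal upper quartiles 1 was lower (GALNT11), against 3.23% and 3.49% of all entries. The highest counts, 13 and 11, came without empty vector sample 2, and 8 did not overlap without Siglec-XII sample 2 (13.0% of all entries). The count over the whole table, 101, was 51 with no filter, 26 with small structured RNAs left out, 54 with eBayes without trend, 66 with the length trend removed and 49 to 159 with 1 sample left out. The median log2 difference of the members, 0.086, was 0.038 with equal upper quartiles, 0.033 with the length trend removed and 0.078 to 0.14 with 1 sample left out. Same-numbered samples did not deviate together (correlations -0.074 to 0.059). The replicate block gave 7 higher and 1 lower member (GALNT15), against 12.8% and 3.01% of all entries, and changed no adjusted call of a member.

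Of the 40 tested members, 26 had the same sign in every alternative they were tested in and 14 did not. With quantile normalization the log2 differences that changed sign were -0.0052 for FUT1, -0.047 for FUT8, -0.030 for MGAT5, -0.041 for B4GALT7, -0.0031 for FUT10, -0.0012 for GALNT18 and -0.046 for GCNT2. With equal upper quartiles they were -0.010 for FUT1, -0.039 for FUT8, -0.022 for MGAT5, -0.031 for B4GALT7 and -0.035 for GCNT2. With mitochondrial and abundant entries left out they were -0.020 for FUT8, -0.0050 for MGAT5, -0.013 for B4GALT7 and -0.017 for GCNT2. Array weights gave -0.010 for FUT8 and 0.020 for MGAT3. Removing the length trend gave -0.033 for FUT1, -0.071 for FUT8, -0.0084 for MGAT5, -0.022 for B4GALT7, -0.014 for B4GALT6 and -0.013 for FUT10. Leaving out 1 sample at a time gave -0.021 to 0.13 for FUT1, -0.058 to 0.063 for FUT8, -0.0015 to 0.081 for MGAT5, -0.20 to 0.021 for GALNT12, -0.14 to 0.12 for GALNT3, -0.054 to 0.14 for B4GALT7, -0.070 to 0.075 for MGAT3, -0.0049 to 0.052 for GCNT2, -0.058 to 0.014 for C1GALT1, -0.060 to 0.18 for B4GALT6, -0.023 to 0.13 for GALNT1 and -0.023 to 0.16 for B3GNT10. Among genes that kept their sign, the lowest log2 differences over the 19 alternatives were 0.055 for MGAT1, 0.032 for GALNT6, 0.038 for FUT4, 0.066 for B4GALT5 and 0.0024 for B4GALT1. With no read counts in the table, depth cannot be used to weigh low genes.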
